A study of Equus caballus with 68 samples.

Results

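The genes described here are TREM2, a lipid-sensing receptor of macrophages, and 9 genes that act with it or after it in the handling of lipid: TYROBP, GPNMB, APOE, LPL, LIPA, ABCA1, ABCG1, PLIN2 and LGALS3. They were chosen by their gene symbol, and each of the 10 symbols matched 1 entry of the table, in which 24065 genes were above 0 in at least 1 library. All 10 were among the 14570 genes that passed the filter on low values and were tested.

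RNA was sequenced from bone marrow mononuclear cells (BMNC) of 8 Thoroughbred horses, geldings and mares aged 3 to 9 years, before culture (BMNC 0 h) and after culture in undiluted synovial fluid of the same horse. Normal fluid (SF) came from healthy middle carpal joints. Inflamed fluid (ISF) came from radiocarpal joints injected with lipopolysaccharide, and both fluids were freed of cells. The joint and its inflammation therefore cannot be told apart in any difference between the fluids. More of the same fluid was added to the cultures every 48 hours. Each of the 68 libraries came from 1 well of 1 horse. All 8 horses were sampled before culture and, in each fluid, after 96 hours and 6 days, while Moon was missing after 48 hours and Flash after 10 days, which left 7. All cultured cells were therefore in joint fluid, and no culture in a standard medium is part of the comparison.

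TREM2 is a receptor on the surface of macrophages that binds lipids and lipoproteins and signals through its partner TYROBP. Macrophages that take up lipid release fatty acids from lipoproteins with lipoprotein lipase (LPL), hydrolyse cholesterol esters in the lysosome with acid lipase (LIPA), store surplus lipid in droplets coated by perilipin 2 (PLIN2), and pass cholesterol out of the cell to apolipoproteins such as APOE through the transporters ABCA1 and ABCG1. GPNMB and galectin-3 (LGALS3) are markers of macrophages loaded with lipid or with lysosomal damage.

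Levels are given in GeTMM, a count of reads per kilobase of gene that the authors scaled between libraries, so that levels can be compared between genes as well as between libraries. Libraries held 15.7 to 36.0 M reads on genes (median 22.3 M). At 6 days the SF library of Moon stood apart from the rest. Its group held 19.7 to 24.7 M reads per library, yet it had 2763 tested genes at 0 against 360 to 1169 in the other libraries, and its GeTMM values summed to 2321940 against at most 1458342. A profile was made of the 200 genes that differed most between the labelled horses, relative to the spread within them. By this profile 66 libraries resembled their labelled horse most, an agreement that the choice of genes by label favours. For the other 2, from ISF at 96 hours, the labels Dealings and Dreamer were each matched best by the other of these horses, and counts of horses at that time are also given without them. The macrophage genes CD68, CD163, MRC1, MSR1, CSF1R and MERTK had a mean log2 level of 4.47 before culture. After 48 hours it was 7.40 (ISF) and 7.30 (SF), and after 10 days 8.67 (ISF) and 8.39 (SF). In bulk RNA, fewer cells of a type and less RNA per cell cannot be told apart, and this holds for every difference below.

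Culture in either fluid was accompanied by a large rise of most of these genes within 48 hours. A differentially expressed gene (DEG) here has an FDR under 0.05 in limma, adjusted by Benjamini-Hochberg over all tested genes. In ISF 8 of the 10 genes rose and none fell, where 52.7% of all tested genes were DEGs and 25.3% rose. In SF 8 of 10 rose and none fell, where 45.4% of all tested genes were DEGs and 22.3% rose. The median log2 fold change of the 10 genes was 3.11 in ISF and 3.21 in SF, against -0.03 and -0.01 for all tested genes. Both comparisons share the 8 libraries at 0 hours. Over the same interval 5 of 6 macrophage genes rose in each fluid, while genes of several other cell types fell in the counts that follow. Of all tested genes 27.4% fell in ISF and 23.1% in SF. Erythroid genes fell in 4 of 4 in each fluid, with a median log2 fold change of -4.59 in ISF and -4.29 in SF, and T cell genes in 4 of 5 in each. Of the B cell and plasma cell genes 4 of 4 fell in ISF and 2 of 4 in SF, and of the neutrophil precursor genes 2 of 6 and 3 of 6. The part of these cells in the rise of the 10 genes was not tested.

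TREM2 was low before culture, with 2.22 GeTMM in the lowest library, a median of 3.16 and 8.78 in the highest. No library held fewer than 26 reads of it. At 48 hours it ranged from 140.6 to 286.8 in ISF (median 263.4) and from 98.6 to 231.4 in SF (median 145.7). Every cultured library lay above every uncultured one. The rise was 41.6-fold in ISF (log2 5.38 ± 0.27 SE, FDR 3.6e-26) and 28.9-fold in SF (4.85 ± 0.27, FDR 7.75e-24), on the scale of log2(GeTMM + 1) that holds for all fold changes here. It rose further from 48 to 96 hours in ISF (2.55-fold, FDR 0.000126) and in SF (2.93-fold, FDR 5.92e-06). By 10 days the median was 922.9 in ISF and 739.8 in SF, and by its mean level TREM2 had moved from place 9569 among the tested genes at 0 hours to place 133 in ISF and 164 in SF.

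TYROBP, the adaptor that carries the signal of TREM2 and of other receptors of myeloid and natural killer cells, was at 2218 to 3173 GeTMM (median 2717) before culture. It was therefore far above TREM2 at the start and stood at a median of 1640 in ISF and 1296 in SF at 10 days, when TREM2 had come much closer to it. No DEG call was made for TYROBP from 0 to 48 hours in ISF (log2 -0.09 ± 0.18, FDR 0.704) or SF (0.09 ± 0.18, FDR 0.707). It fell from 48 to 96 hours in SF (log2 -0.52 ± 0.18, FDR 0.0211), a call that was lost without Catnip, Dreamer or Lurie (FDR up to 0.0865). The change over the same interval in ISF was -0.40 ± 0.18 (FDR 0.114), and whether the fluids differ in this was not tested.

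**Figure D1:**
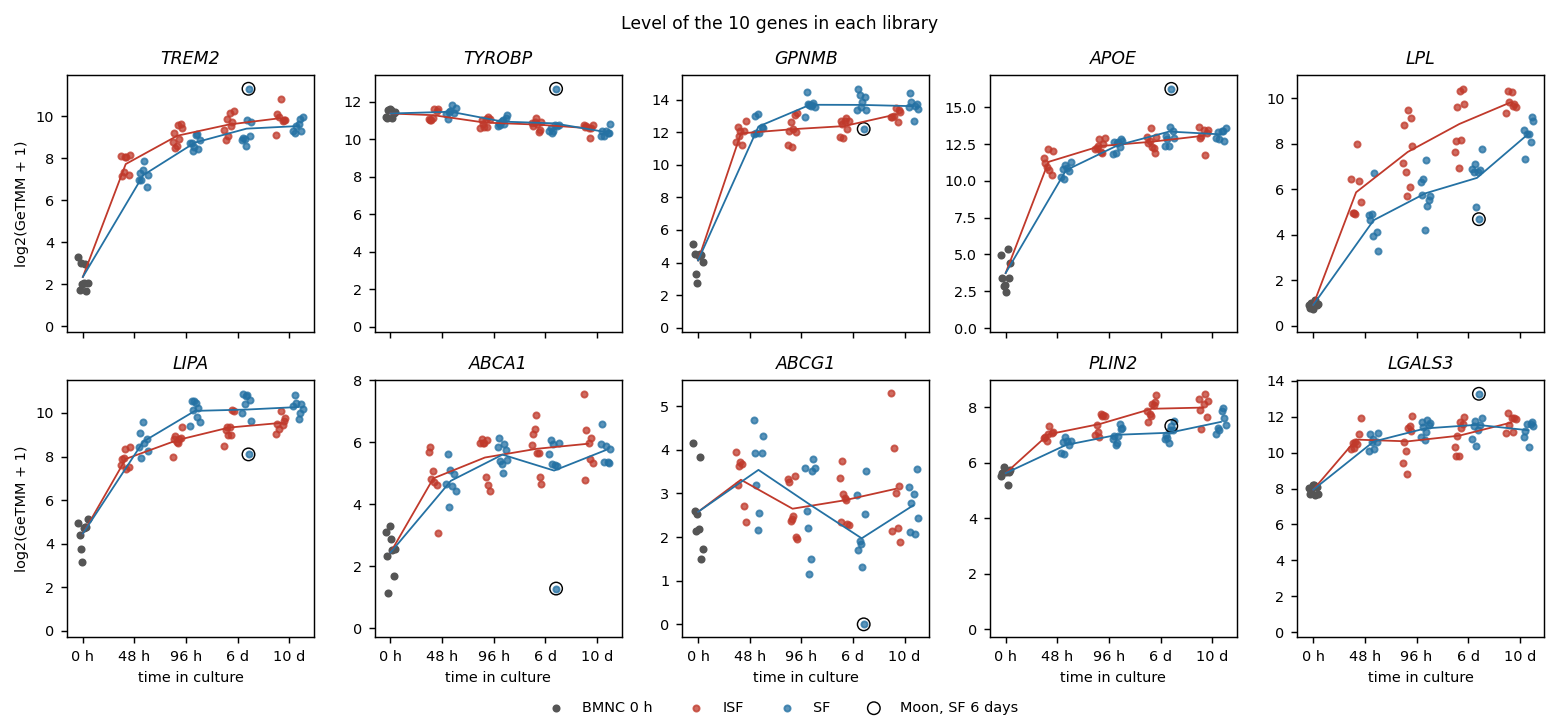
Level of each of the 10 genes, as log2(GeTMM + 1), in every library at 0 hours (grey) and in ISF (red) or SF (blue) at each time point; lines join the group means, which start from the shared 0 hour libraries, and a black ring marks the SF library of Moon at 6 days. TREM2, GPNMB and APOE climbed steeply by 48 hours in both fluids, TYROBP started high, and LPL and PLIN2 ran higher in ISF while GPNMB and LIPA ran higher in SF.

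GPNMB, a transmembrane glycoprotein of lysosome-rich phagocytes, and APOE, the apolipoprotein that macrophages secrete, became some of the most abundant transcripts of the cultures. GPNMB was at 5.71 to 33.7 GeTMM before culture and at 2371 to 6589 in ISF and 3750 to 8936 in SF at 48 hours. These were rises of 225-fold (log2 7.81 ± 0.30, FDR 9.59e-32) and 301-fold (8.23 ± 0.30, FDR 5.83e-33). By its mean level GPNMB took place 3 among all tested genes in SF at 96 hours and place 11 in ISF at 10 days.

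APOE went from 4.57 to 40.9 GeTMM at 0 hours to 1373 to 4581 in ISF and 1112 to 2508 in SF at 48 hours. It rose 188-fold in ISF (log2 7.55 ± 0.36, FDR 5.07e-27) and 127-fold in SF (6.99 ± 0.36, FDR 3.39e-25), and again from 48 to 96 hours in ISF (2.1-fold, FDR 0.0262) and SF (3.23-fold, FDR 0.000192). The later rise in ISF was lost without Dealings, Dreamer, Lurie or Ollie (FDR up to 0.137). At 10 days its median was 9637 in ISF and 10230 in SF, place 9 and place 8 of the tested genes.

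The enzymes and transporters started from lower levels or rose less. LPL was low at 0 hours (0.677 to 1.17 GeTMM), though no library held fewer than 19 reads of it. It rose 31.1-fold in ISF (FDR 4.82e-13) and 13.3-fold in SF (FDR 4.87e-09) by 48 hours. As these starting levels lie near the pseudocount of 1, the size of the LPL rise depends on it, and with a pseudocount of 0.1 the log2 fold change was 5.88 in place of 4.96 in ISF and 4.61 in place of 3.73 in SF. LIPA rose from a median of 25.7 to 238.3 in ISF (10.8-fold, FDR 2.07e-16) and to 397.8 in SF (18.7-fold, FDR 3.89e-20). ABCA1, which loads cholesterol onto lipid-poor apolipoproteins, rose from a median of 4.81 to 26.9 in ISF (5.26-fold, FDR 3.18e-06) and 24.1 in SF (4.98-fold, FDR 7.91e-06). PLIN2 had the smallest of the 8 rises, from 36.1 to 56.2 at 0 hours to 110.6 to 159.4 in ISF (2.64-fold, FDR 6.06e-12) and 78.9 to 120.1 in SF (2.03-fold, FDR 8.48e-08). LGALS3, a galectin recruited to damaged lysosomes, was already at a median of 250.2 before culture and rose 6.94-fold in ISF (FDR 2.05e-10) and 6.45-fold in SF (FDR 9.35e-10).

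ABCG1, which hands cholesterol to high-density lipoproteins, was the exception beside TYROBP. Its level was 1.81 to 16.7 GeTMM at 0 hours and 4.05 to 14.4 in ISF and 3.51 to 24.9 in SF at 48 hours, so that all 3 groups overlapped. No call was made in ISF (log2 0.74 ± 0.44, FDR 0.155) or in SF (0.96 ± 0.44, FDR 0.0665), although the SF change was a DEG with the horse as a term in the fit and when Moon's SF library of day 6 was dropped. At 10 days the median of ABCG1 was 6.99 in ISF and 5.83 in SF, against 61.8 and 54.3 for ABCA1.

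After 48 hours fewer of the genes moved. From 48 to 96 hours, 4 of the 10 rose in ISF (TREM2, APOE, LPL and LIPA) while 19% of all tested genes were DEGs and 8.54% rose. In SF 4 rose (TREM2, APOE, GPNMB and LIPA) and TYROBP fell, while 27.3% of all tested genes were DEGs, 11.5% rose and 15.8% fell. The count in SF was 8 without Flash. The count in ISF was 2 when the doubtful libraries of Dealings and Dreamer were dropped, and 2 again when Dealings, Dreamer, Lurie or Ollie was left out. From 96 hours to 6 days PLIN2 rose in ISF (log2 0.55 ± 0.15, FDR 0.0148), as the single call among the 10 (6.38% of all tested genes were DEGs and 2.83% rose). This call was lost without Catnip or RimRun, and LPL was called beside PLIN2 with the horse as a term. In SF none was called over that interval, by limma or by voom on recovered reads, with 2 at an unadjusted p under 0.05 by either (2.05% of all tested genes were DEGs).

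From 6 to 10 days LPL rose in SF from a median of 110.3 to 345.4 GeTMM (log2 1.94 ± 0.50, FDR 0.0152), where 4.78% of all tested genes were DEGs and 3.19% rose. No call was made for LPL without Moon, without Ollie, or when only Moon's SF library of day 6 was dropped, which at 24.7 GeTMM was the lowest of its group, and PLIN2 was called beside LPL with the horse as a term. None of the 10 genes was called in ISF over this interval by limma or voom, with 2 at an unadjusted p under 0.05 by either (10.5% of all tested genes). Leaving out Moon gave 1 call.

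Between the fluids the genes divided. LPL and PLIN2 were higher in ISF, GPNMB and LIPA were higher in SF, and for TREM2, TYROBP, APOE, ABCA1, ABCG1 and LGALS3 no difference passed the test at any time point with all libraries in the fit. The number of the 10 called was 0, 3, 4 and 2 at the 4 successive time points, beside 1.68%, 10.5%, 30.2% and 20.8% of all tested genes. At 96 hours 1 of the 10 was higher and 2 lower in ISF, against 6.16% and 4.3% of all tested genes, and at 6 days 2 and 2, against 16.7% and 13.6%. At 10 days 2 were higher and 0 lower, against 9.95% and 10.8%. The 3 genes at 96 hours and the 4 at 6 days were the same when the doubtful libraries of that time were dropped. At 48 hours, where voom also called 0, 3 genes had an unadjusted p under 0.05 by limma and 4 by voom, and LIPA was called when Moon's SF library of day 6 was dropped (FDR 0.0484).

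LPL showed the largest difference of the 10 at 96 hours, 6 days and 10 days. At 48 hours it was at 28.7 to 250.7 GeTMM in ISF (median 42.2) and 8.82 to 102.9 in SF (median 24.0), higher in ISF in 7 of 7 horses but without a call (log2 1.23 ± 0.51, FDR 0.24). At 96 hours the ranges were 51.2 to 722.6 (median 189.8) and 17.4 to 155.7 (median 52.2). ISF was higher in 8 of 8 horses, by 3.53-fold (log2 1.82 ± 0.48, FDR 0.00774), and in 6 of 6 without Dealings and Dreamer, and the call was lost without Ollie (FDR 0.0566).

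At 6 days LPL reached 120.7 to 1373 GeTMM in ISF (median 542.3) and 24.7 to 218.1 in SF (median 110.3), with the lowest ISF libraries inside the range of SF. The difference was 5.18-fold (log2 2.37 ± 0.48, FDR 0.000102), in 8 of 8 horses, and it was called under every alternative run. At 10 days the groups no longer overlapped, with 663.3 to 1286 in ISF and 160.7 to 582.9 in SF. The difference was 2.62-fold (log2 1.39 ± 0.51, FDR 0.0451) in 7 of 7 horses, and this call was lost when any horse of the 7 was left out, when no filter on low values was applied and by voom (FDR 0.0531).

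PLIN2, the coat protein of lipid droplets whose level follows the amount of stored lipid, was higher in ISF in every horse at every time point. At 96 hours it was at 120.8 to 216.3 GeTMM in ISF and 100 to 168.3 in SF (log2 0.39 ± 0.15, FDR 0.0749), a difference that was called with the horse as a term (FDR 0.0149). At that time PLIN2 was higher in ISF in 6 of 6 horses without Dealings and Dreamer. At 6 days the ranges were 174.5 to 345.5 (median 251) and 104.4 to 179 (median 136), so that they met only at their ends. The difference was 1.82-fold (log2 0.87 ± 0.15, FDR 5.09e-06), and at 10 days it was 1.43-fold (0.52 ± 0.16, FDR 0.013). The call at 10 days was lost without Catnip, Dealings or RimRun and with only the 2 groups in the fit (FDR 0.08).

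GPNMB went the other way. At 96 hours it was at 2212 to 9302 GeTMM in ISF (median 4616) and 8053 to 23140 in SF (median 13310), lower in ISF in 8 of 8 horses by 2.83-fold (log2 -1.50 ± 0.29, FDR 0.000202). Without Dealings and Dreamer it was lower in ISF in 6 of 6 horses. At 6 days the ranges were 3243 to 7702 and 4735 to 26200, and the lowest SF value was that of Moon. Without Moon the SF libraries began at 10500 and the groups did not overlap, and ISF was lower in 7 of 7 horses. With Moon the difference was 2.47-fold (log2 -1.30 ± 0.29, FDR 0.000379). At 10 days it was -0.51 ± 0.31 (FDR 0.255), lower in ISF in 6 of 7 horses and without a call.

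LIPA followed the same order as GPNMB. At 96 hours the groups did not overlap, with 253.3 to 646.3 GeTMM in ISF and 666.6 to 1512 in SF, and LIPA was lower in ISF in 8 of 8 horses by 2.53-fold (log2 -1.34 ± 0.27, FDR 0.000384). Without Dealings and Dreamer LIPA was lower in ISF in 6 of 6 horses. At 6 days it was at 362.7 to 1125 in ISF and 273.1 to 1887 in SF, a difference of 1.77-fold (log2 -0.83 ± 0.27, FDR 0.0158) that rested on 6 of 8 horses. The call at 6 days was lost without Catnip, Dealings, Flash or Lurie and with only the 2 groups in the fit. Without Moon, whose SF library had the lowest LIPA value, the difference was larger, with a mean of -1.07 ± 0.82 (SD, 7 horses). At 10 days LIPA was lower in ISF in 6 of 7 horses without a call (log2 -0.73 ± 0.29, FDR 0.0638), and it was called with the horse as a term (FDR 0.0439), without Flash, Lurie or Moon, and in 3 other alternatives.

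TREM2 and its adaptor did not share this split. TREM2 was higher in ISF in 6 of 7 horses after 48 hours, in 7 of 8 after 96 hours, in 6 of 8 after 6 days and in 4 of 7 after 10 days. The log2 differences were 0.53 ± 0.28, 0.33 ± 0.26, 0.20 ± 0.26 and 0.38 ± 0.28, with an FDR of 0.36 to 0.611, so that a difference of up to about 1 log2 unit at 48 hours lay within 2 SE (upper limit 1.08). Without Moon the mean TREM2 difference at 6 days was 0.479 ± 0.315 (SD), higher in ISF in 6 of 7 horses. No alternative gave a call at that time (lowest FDR 0.108). Without Dealings and Dreamer TREM2 was higher in ISF in 5 of 6 horses at 96 hours. TYROBP differed by -0.18 to 0.20 log2 units, and its sign at 6 days turned from -0.06 to 0.20 without the SF library of Moon. APOE had 5166 to 77720 GeTMM in SF at 6 days and at most 12800 in that group without Moon. Its difference at 6 days of -0.69 ± 0.35 (FDR 0.128) was -0.22 in the 7 other horses, and it passed the threshold when Flash was left out instead (-0.97, FDR 0.042).

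**Figure D2:**
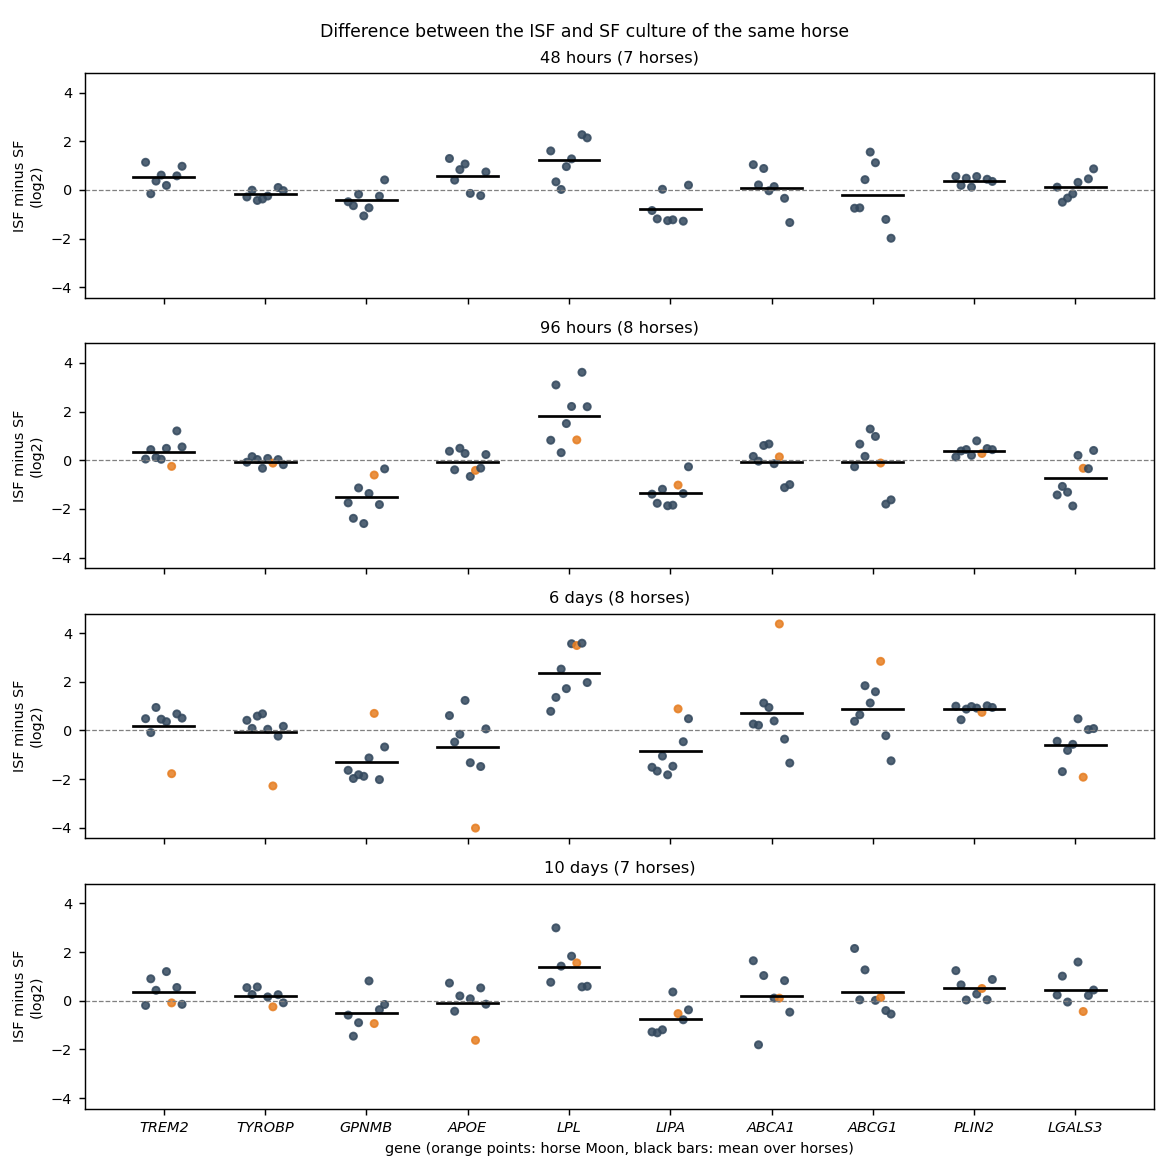
ISF minus SF within a horse, in units of log2(GeTMM + 1), for each gene (columns) at each time point (rows); each point is 1 horse, Moon in orange, and black bars are means over horses. All points of LPL and PLIN2 lie above 0, those of GPNMB and LIPA lie mostly below, and at 6 days Moon lies far from the other 7 horses for TREM2, TYROBP, APOE and ABCA1.

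The transporters ABCA1 and ABCG1 varied more between horses than between fluids. At 6 days ABCA1 was at 23.9 to 116.4 GeTMM in ISF and 1.42 to 65.6 in SF, and the difference of 0.70 ± 0.41 (FDR 0.202) became 0.18 in the 7 horses other than Moon. ABCG1 had no read in the SF library of Moon at 6 days, where 3 reads would have been 0.133 GeTMM, and was at 1.47 to 10.4 in the other 7. Its difference at 6 days was 0.87 ± 0.42 (FDR 0.115), which passed the threshold without RimRun (FDR 0.0378). LGALS3 was lower in ISF in 6 of 8 horses at 96 hours (log2 -0.72 ± 0.33, FDR 0.153) and higher in 5 of 7 at 10 days (0.43 ± 0.35, FDR 0.427), and no difference passed the test. At 96 hours it was lower in ISF in 4 of 6 horses without Dealings and Dreamer.

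Whether the difference between the fluids itself changed was tested with an interaction. The later time was 10 days and the earlier was 48 hours or 6 days. Changes of the difference between the earlier time points were not tested. No change passed the test for any of the 10 genes with either start, by limma or voom. For these starts in turn, 0 and 1 genes had an unadjusted p under 0.05 by either tool, beside 2.99% and 0.226% of all tested genes called. The gene was LGALS3 from 6 to 10 days (log2 1.03 ± 0.48, FDR 0.318). The calls of GPNMB at 6 days and not at 10 days therefore do not show that its difference shrank.

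The SF library of Moon at 6 days lay above the median of the other horses for the 5 shortest of the 10 genes and below it for the 5 longest, with no further order by length within either set. The 4 shortest, TYROBP (657 bases), TREM2 (867), APOE (1092) and LGALS3 (1293), were each highest in that library of the 8, by 2.08, 2.33, 3.33 and 1.77 log2 units over the median of the other 7. PLIN2 (1431 bases) was 0.32 above it. LIPA, LPL, ABCG1, GPNMB and ABCA1, of 1647 to 7844 bases, were each lowest, at -2.50, -2.15, -1.92, -1.64 and -4.36 units from the median. Over all tested genes of that library, the shortest 25% lay at a median of -0.05 log2 units from the mean of the other 7 libraries and the longest 25% at -0.69, a gap of 0.64 against -0.34 to 0.23 in the other 67 libraries. In the ISF library of Moon at 6 days the gap was 0.07, and the 10 genes lay between -1.47 and 0.42 from the median of the other 7. The part of length in these values was not tested.

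**Figure D3:**
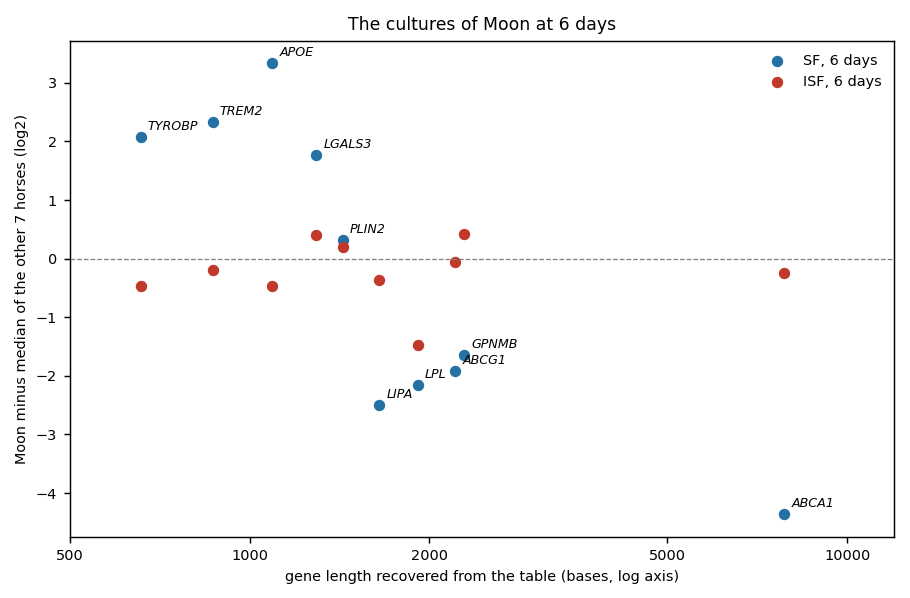
Level of each gene in the cultures of Moon at 6 days minus the median of the other 7 horses (log2 units, vertical axis) against gene length in bases (horizontal log axis), for SF (blue, named) and ISF (red). In SF the 4 shortest genes lie 1.77 to 3.33 units above the others and the 5 longest at -4.36 to -1.64.

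The cultures also differed in their other cell types. Of all tested genes 13.6% were lower in ISF at 6 days and 10.8% at 10 days. T cell genes (CD3D, CD3E, CD3G, CD2 and LCK) were lower in ISF, 5 of 5 at 6 days and 5 of 5 at 10 days, and their mean log2 level was 2.59 in ISF and 4.40 in SF at 6 days. Of the B cell and plasma cell genes 4 of 4 were lower at 6 days and 3 of 4 at 10 days, and of the neutrophil precursor genes 5 of 6 and 3 of 6. Fibroblast or stromal genes were lower in ISF in 5 of 5 at 10 days, with a mean log2 level per library of 0.0347 to 3.38 in ISF and 0.104 to 9.39 in SF. The adipocyte genes, of interest because adipocytes carry much LPL, were near 0, with at most 0.63 as the mean log2 level of 3 genes in any library and LEP at 0 in every cultured group. ADIPOQ, the 1 adipocyte gene tested, was lower in ISF at 6 days (log2 -0.83 ± 0.18, FDR 0.000259; means of 0.0285 and 1.02 GeTMM) and 10 days (-0.77 ± 0.19, FDR 0.00209). As the levels of ADIPOQ lie near or below the pseudocount of 1, the size of its differences depends on it. Of the macrophage genes 1 of 6 was higher in ISF at 96 hours, 6 days and 10 days, with a median log2 fold change of the 6 of 0.35, 0.47 and 0.13. The gene was MSR1, a scavenger receptor for modified lipoproteins, at a mean of 1180 GeTMM in ISF and 245 in SF at 6 days (log2 2.27 ± 0.31, FDR 3.79e-08). The other 5 macrophage genes differed by 0.04 to 0.72 log2 units at 6 days without a call.

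Relative to the mean of the macrophage genes in the same library, LPL, GPNMB and LIPA kept their order between the fluids, and the mean difference of PLIN2 was smaller than without this step. LPL minus the macrophage genes was higher in ISF in 6 of 7 horses after 48 hours, in 6 of 8 after 96 hours, in 7 of 8 after 6 days and in 7 of 7 after 10 days, by a mean of 1.69 ± 1.28 log2 units (SD, n = 8) at 6 days. At 96 hours ISF minus SF was -1.93 ± 0.81 for GPNMB and -1.76 ± 0.54 for LIPA on this scale, each lower in ISF in 8 of 8 horses. PLIN2 was higher in ISF in 3 of 8 horses at 96 hours and 6 of 8 at 6 days, with means of -0.03 ± 0.50 and 0.19 ± 0.37. MSR1 weighed on this scale. With MSR1 left out of the list, a choice made after seeing the data, PLIN2 was higher in ISF in 5 of 8 horses at 96 hours and 7 of 8 at 6 days, with means of 0.18 ± 0.59 and 0.51 ± 0.46. LPL was then higher in 8 of 8 at 6 days (2.01 ± 1.29), and GPNMB and LIPA stayed lower in 8 of 8 at 96 hours. Without Dealings and Dreamer at 96 hours, GPNMB and LIPA were lower in ISF in 6 of 6 horses, with or without MSR1. LPL was higher in 5 of 6 with MSR1 and 6 of 6 without it, and PLIN2 in 2 of 6 and 4 of 6. The part of the macrophage share of the cultures in the PLIN2 difference was not tested.

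**Figure D4:**
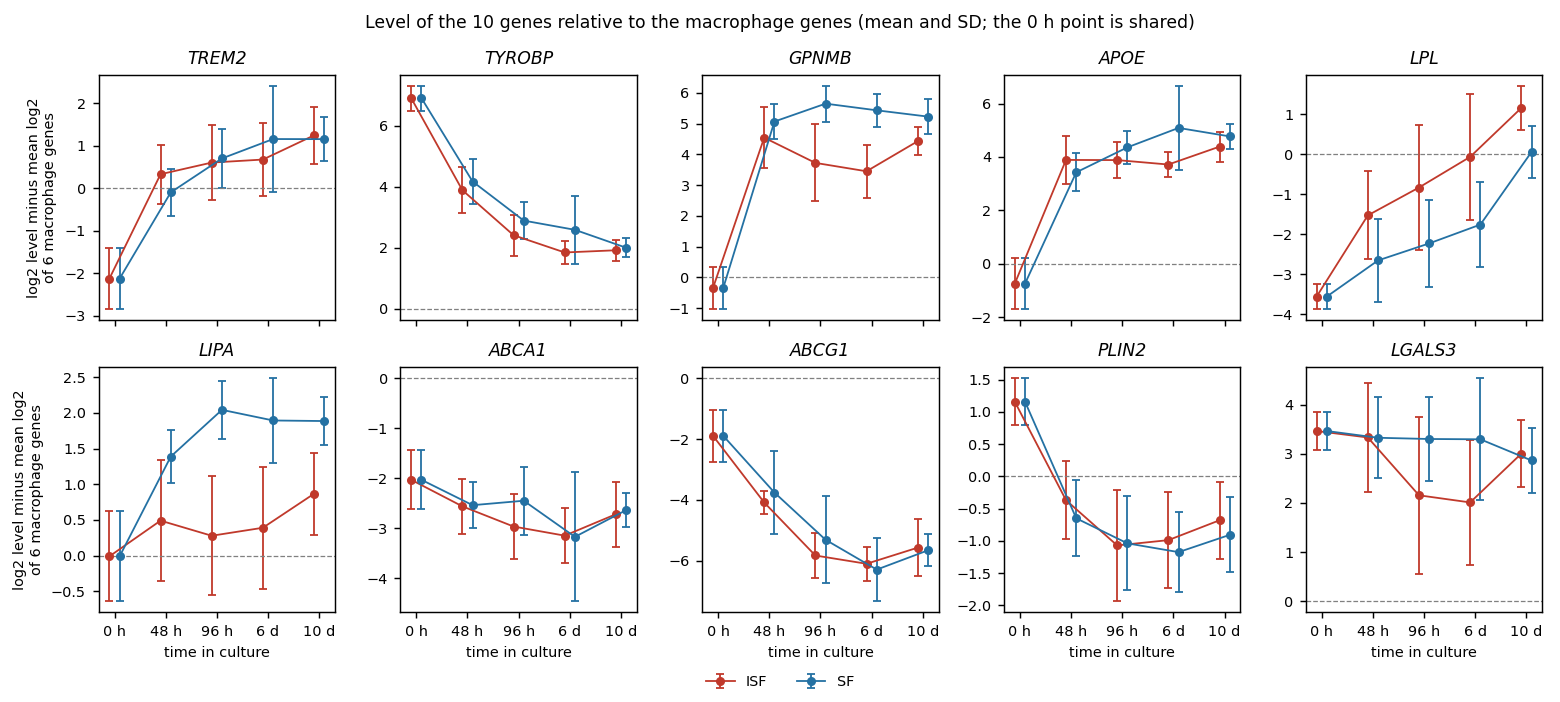
Level of each gene minus the mean log2 level of 6 macrophage genes in the same library (log2 units; mean and SD per group, 7 or 8 libraries) at 0 hours and in ISF (red) and SF (blue). LPL lies above SF in ISF at each time point, LIPA and GPNMB lie below it, and the lines of PLIN2, ABCA1 and ABCG1 stay within an SD of each other.

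On the same scale some genes rose more than the mean of the macrophage genes and others did not. That mean joins unequal changes. From 0 hours to 10 days in ISF, MSR1 went from a mean of 4.75 to 1260 GeTMM and CSF1R from 85.4 to 288. From 0 hours to 10 days TREM2 went from -2.12 ± 0.71 (SD, n = 8) to 1.24 ± 0.66 in ISF and 1.16 ± 0.52 in SF (n = 7 each), and GPNMB from -0.34 ± 0.68 to 4.42 ± 0.45 and 5.23 ± 0.56. APOE went from -0.74 ± 0.95 to 4.39 ± 0.57 and 4.77 ± 0.46. LPL went from -3.56 ± 0.31 to 1.16 ± 0.56 and 0.06 ± 0.66, and LIPA from -0.01 ± 0.63 to 0.87 ± 0.58 and 1.89 ± 0.34. PLIN2 fell from 1.16 ± 0.37 to -0.68 ± 0.60 and -0.91 ± 0.58. ABCA1 fell from -2.03 ± 0.59 to -2.72 ± 0.65 and -2.64 ± 0.35, and ABCG1 from -1.89 ± 0.855 to -5.57 ± 0.94 and -5.66 ± 0.53. TYROBP went from 6.90 ± 0.41 to 1.92 ± 0.34 and 2.00 ± 0.32, and LGALS3 was at 3.46 ± 0.39 at 0 hours and 3.00 ± 0.69 and 2.86 ± 0.65 at 10 days. These relative levels are descriptions and were not tested.

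Other genes of the same pathways were followed in 6 lists. Of their 67 genes, 63 were found once in the table and 58 were tested. In the first 48 hours, 28 of the 58 rose and 13 fell in ISF (70.7% called), where 25.3% of all tested genes rose and 27.4% fell. In SF 24 rose and 12 fell (62.1% called), where 22.3% of all tested genes rose and 23.1% fell. The list of lipid and lipoprotein uptake had 7 of 12 genes that rose in ISF and 5 of 12 in SF with none that fell, and that of lysosomal and cytosolic sterol handling had 7 and 6 of 11 that rose and 3 and 2 that fell. Of the genes around TREM2 signalling 6 of 11 fell and 2 rose in ISF, and 5 fell and 2 rose in SF.

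Between the fluids, 1 of the 58 (1.72%) was a DEG at 48 hours and 2 (3.45%) at 96 hours, where 1.68% and 10.5% of all tested genes were DEGs. At 6 days 22 (37.9%) and at 10 days 16 (27.6%) were DEGs, where 30.2% and 20.8% of all tested genes were. At 6 days 17 were higher and 5 lower in ISF, beside 16.7% and 13.6% of all tested genes, and at 10 days 10 were higher and 6 lower, beside 9.95% and 10.8%. The balance of directions over all tested genes at 6 days depended on the SF library of Moon. With it 2427 genes were higher and 1978 lower in ISF, and without it 2598 and 2676. The counts of the lists are with that library in the fit. Their median log2 fold change was 0.23 at 6 days and 0.02 at 10 days, against 0.00 and -0.02 for all tested genes.

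Around TREM2, 5 of 11 genes were higher in ISF at 6 days and 2 of 11 at 10 days, and none was lower. Of all tested genes 16.7% and 9.95% were higher at these times. At 6 days VAV3 had the largest difference (log2 0.71 ± 0.15, FDR 0.000187) and PLCG2, the phospholipase after SYK, the smallest of those called (0.42 ± 0.12, FDR 0.00395). The call of PLCG2 was lost with only the 2 groups in the fit (FDR 0.105). At 10 days TREM1, an activating receptor that shares TYROBP with TREM2, was at 35.2 to 286.2 GeTMM in ISF and 1.62 to 52.5 in SF (log2 2.77 ± 0.46, FDR 7.64e-06), and VAV3 was again higher (0.65 ± 0.16, FDR 0.00193).

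Of the uptake genes, 4 of 12 were higher in ISF at 6 days and 2 of 12 at 10 days, beside 16.7% and 9.95% of all tested genes. VLDLR, the receptor for triglyceride-rich lipoproteins, was at 4.97 to 20.7 GeTMM in ISF and 2.07 to 7.26 in SF at 6 days (log2 1.36 ± 0.28, FDR 0.000103) and at means of 33.8 and 8.54 at 10 days (1.82 ± 0.30, FDR 4.49e-06). LRP1 at 6 days (0.60 ± 0.23, FDR 0.0372) and the fatty acid transporter SLC27A4 at 10 days (0.70 ± 0.14, FDR 0.000218) had the smallest differences called. The call of LRP1 was lost in 11 of 18 alternatives.

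Genes of lipid droplets were called in both directions. HILPDA, an inhibitor of the triglyceride lipase ATGL that sits on droplets, was at 122.6 ± 57.2 GeTMM (SD, n = 8) in ISF and 52.2 ± 8.07 in SF at 6 days (log2 1.09 ± 0.23, FDR 0.000189) and at 211.8 ± 131.1 and 65.7 ± 16.9 (n = 7 each) at 10 days (1.48 ± 0.25, FDR 7.27e-06). MGLL, the monoglyceride lipase, was lower in ISF at 6 days (-1.62 ± 0.41, FDR 0.00174) and 10 days (-1.75 ± 0.44, FDR 0.0025). In this list 2 of 11 genes were higher and 2 lower at 6 days, beside 16.7% and 13.6% of all tested genes. At 10 days 1 was higher and 3 lower, beside 9.95% and 10.8%. LIPE, the hormone-sensitive lipase, and DGAT2, which makes triglyceride, were the other genes that were lower, DGAT2 at 10 days alone.

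**Figure D5:**
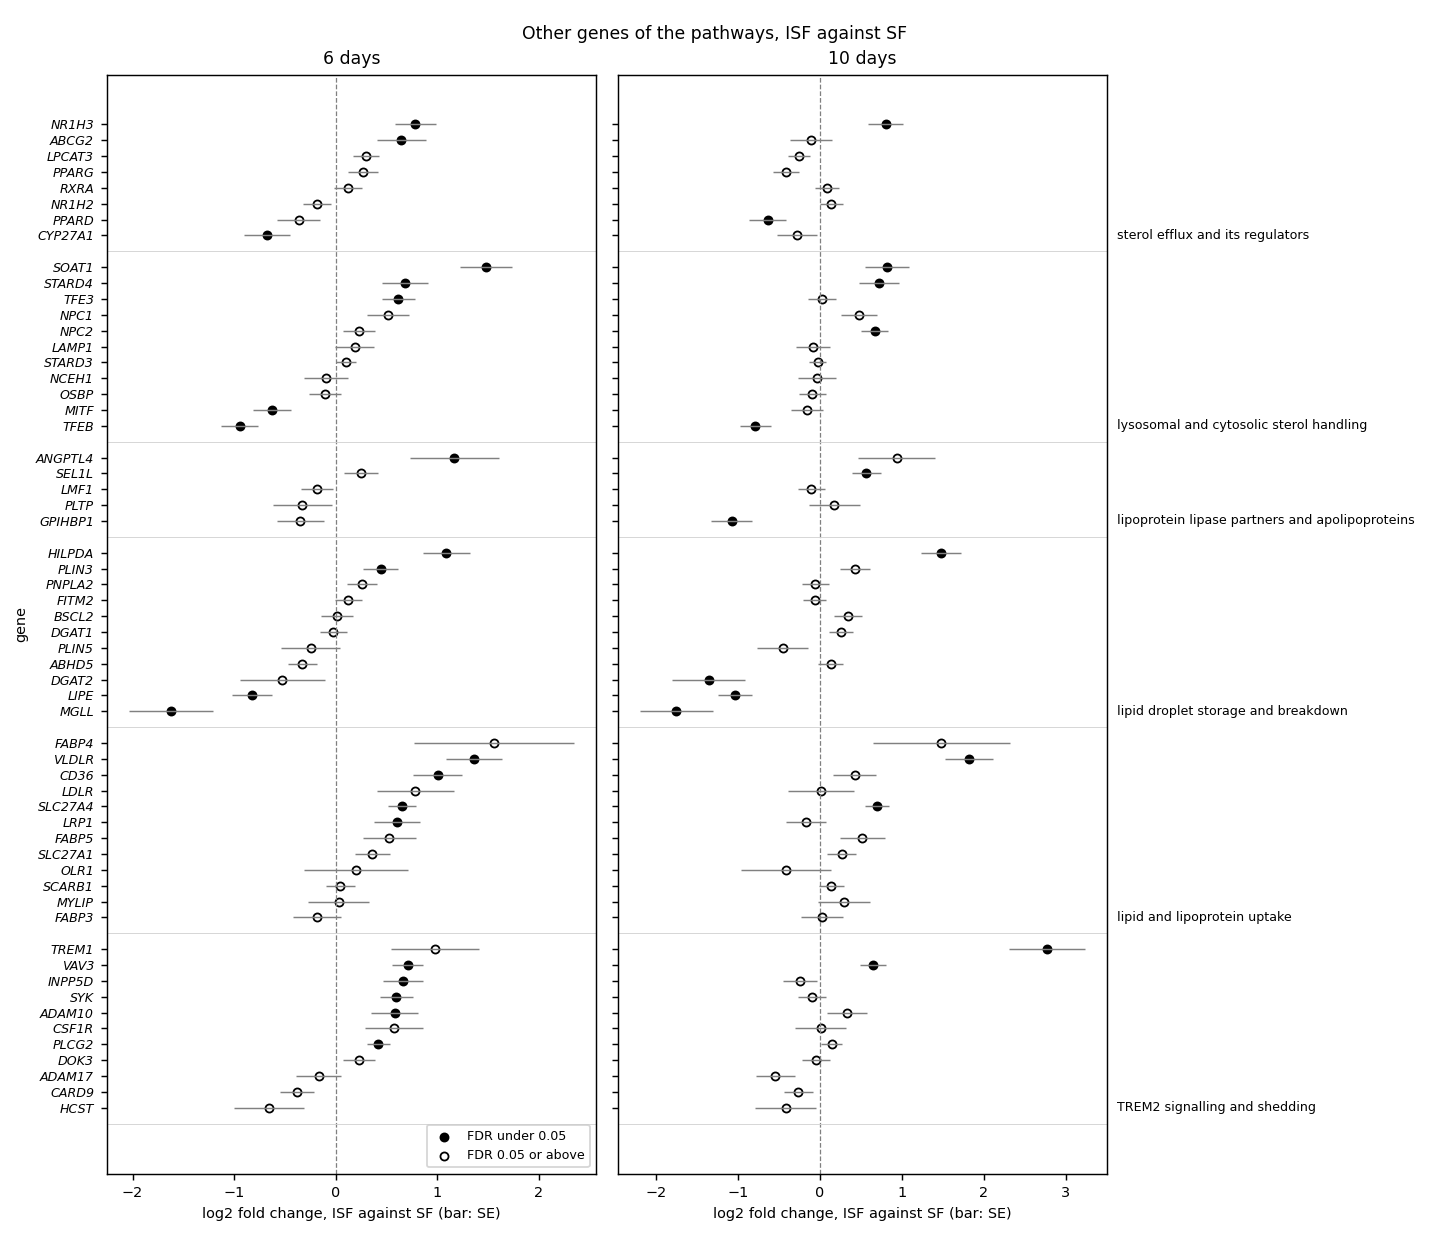
Log2 fold change of ISF against SF at 6 days (left) and 10 days (right) for the 58 tested pathway genes, in 6 lists; filled points have an FDR under 0.05 and bars are 1 SE. At 6 days the filled points lie to the right of 0 for 17 genes, among them SOAT1, VLDLR and HILPDA, and to the left for 5, among them MGLL and TFEB.

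Among genes of sterol handling, SOAT1, which makes cholesterol esters for storage, was at 90.6 to 255.9 GeTMM in ISF and 7.22 to 96.1 in SF at 6 days (log2 1.48 ± 0.26, FDR 6.76e-06) and was higher at 10 days (0.82 ± 0.27, FDR 0.0245). The call of SOAT1 at 10 days was lost without Catnip, Dealings, Dreamer, Lurie or RimRun (FDR 0.0579 to 0.109). TFEB, a transcription factor of lysosomal genes, was lower in ISF at 96 hours (-0.72 ± 0.18, FDR 0.00498), 6 days (-0.95 ± 0.18, FDR 4.08e-05) and 10 days (-0.79 ± 0.19, FDR 0.00197), and its relative MITF was lower at 96 hours (-0.64 ± 0.18, FDR 0.0148), a call lost without the doubtful libraries of Dealings and Dreamer and without Catnip, Dealings or Flash (FDR up to 0.0949). The MITF call was also lost with only the 2 groups in the fit (FDR 0.0506). In all, 3 of the 11 genes were higher and 2 lower at 6 days, beside 16.7% and 13.6% of all tested genes. At 10 days 3 were higher and 1 lower, beside 9.95% and 10.8%. STARD3, a sterol transfer protein of late endosomes, was the single gene of all lists called at 48 hours (-0.49 ± 0.11, FDR 0.00507). This call was lost without Dreamer (FDR 0.0564) and with only the 2 groups in the fit (FDR 0.0594).

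Of the efflux regulators, NR1H3, the sterol-sensing nuclear receptor LXR alpha that induces ABCA1, ABCG1 and APOE, was higher in ISF at 6 days, at 144.2 ± 72.0 against 79.2 ± 23.8 GeTMM (SD, n = 8 each; log2 0.78 ± 0.20, FDR 0.00192), and at 10 days (0.80 ± 0.22, FDR 0.00445). For these 3 genes no difference between the fluids passed the test, as given above. CYP27A1, which makes an oxysterol, was lower at 6 days (-0.68 ± 0.23, FDR 0.0182) at levels of at most 7.82 GeTMM, without a call when the SF library of Moon was left out (FDR 0.0914). The call of CYP27A1 was also lost without Dealings or Flash and with only the 2 groups in the fit (FDR 0.154). PPARD was lower at 10 days (-0.64 ± 0.23, FDR 0.0382), a call lost in 8 of 18 alternatives, among them leaving out any of 6 horses (FDR up to 0.128). In this list 2 of 8 genes were higher and 1 lower at 6 days, beside 16.7% and 13.6% of all tested genes. At 10 days 1 was higher and 1 lower, beside 9.95% and 10.8%.

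Of the partners of LPL, ANGPTL4, its secreted inhibitor, was higher in ISF at 6 days (1.17 ± 0.44, FDR 0.0365), a call lost in 8 of 18 alternatives. SEL1L, which helps LPL leave the endoplasmic reticulum, was higher at 10 days (0.57 ± 0.18, FDR 0.0158), a call lost without Catnip, Lurie, Ollie or RimRun (FDR up to 0.107). GPIHBP1, which anchors LPL on capillary endothelium, was lower at 10 days (-1.08 ± 0.25, FDR 0.000962), at 0 to 0.258 GeTMM in ISF and 0.221 to 5.28 in SF. Its ISF levels lie below the pseudocount of 1, and its log2 fold change ranged from -3.72 to -0.83 over the alternatives. In this list 1 of 5 genes was higher at 6 days, beside 16.7% of all tested genes. At 10 days 1 was higher and 1 lower, beside 9.95% and 10.8%.

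The levels of the 10 genes were finally compared across the 60 cultured libraries, as Pearson correlations of log2(GeTMM + 1). These points share horses, fluids and times, and in part the composition of the cultures. GPNMB and LIPA ran most closely together (r = 0.87), followed by TREM2 and APOE (0.82), LPL and PLIN2 (0.78) and TREM2 with LPL and with PLIN2 (0.73 each). TYROBP ran against ABCA1 (-0.66) and LIPA (-0.58). Among all tested genes with a symbol, LPL was most like NXPH3 (0.975), SDC2 (0.945) and SYT12 (0.93), GPNMB most like SYNRG (0.93), PLXDC1 (0.92) and RAB11FIP5 (0.90), and TREM2 most like VKORC1 (0.917), ACAA2 (0.905) and SPCS1 (0.90). LIPA was most like PLXDC1 (0.88), FAM151B (0.88) and GPNMB (0.87). PLIN2 was most like DNAI4 (0.88), and ABCG1 reached no more than 0.67, with SEC24B.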

How the data were processed

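BMNC of 8 horses gave 68 libraries. The authors trimmed the reads with TrimGalore, mapped them to EquCab3.0 with STAR 2.7.2a, counted them per gene and made GeTMM values, close to RPKM values, with edgeR before the table was deposited. No log had been taken and no values were pooled. Reads on genes were recovered from the steps of the table (24064 of 24065 genes whole within 0.02 reads), which also gave the gene lengths. Values were tested as log2(GeTMM + 1) with limma 3.58.1 in R 4.3.3 (lmFit, eBayes with a trend) in 1 fit of 9 groups without a horse term, for genes at 0.5 GeTMM or more in at least 7 libraries, two-sided. The members and gene lists were chosen with earlier results of these data known. Named beside the 10 genes are, per list and time point, the called genes with the highest and lowest fold change. LIPE and DGAT2 were named after their values were seen.

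Libraries of 1 horse come from the same animal. At 48 hours the ISF and SF libraries of the same horse deviated together in 7 of 7 pairs (correlation 0.41 to 0.56), at 96 hours in 6 of 8, the exceptions being Dealings and Dreamer, at 6 days in 8 of 8 and at 10 days in 5 of 7 at a correlation over 0.1. Each library was 1 well, so the spread within a group holds differences between horses and between wells together. The main fit pools this spread over all 9 groups and does not pair the fluids by horse. Its p-values therefore do not measure the spread of the difference within a horse. No pair of libraries held the same values (at least 93.6% of tested genes differed). Alternatives were a pseudocount of 0.1, no filter, rescaling by the median of ratios, a horse term, only the groups compared in the fit, voom on recovered reads, a log2 fold change of at least 1 as well, and leaving out doubtful libraries or each horse. The fit was also run on simulated data drawn independently for each library, which does not bear on libraries that share a horse. Marker lists are named in the text where used. Those for erythroid cells (4 genes) and monocytes (2 genes) gave 0 of 4 and 1 of 2 genes called at 6 days, beside 30.2% of all tested genes.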

Additional observations from a re-analysis of the deposited data

Results flagged for a closer look

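In groups of 7 or 8 libraries, 8 of 90 gene and group combinations held a library far from the others, where chance gives about 1 in 20, and 5 of the 8 were the SF library of Moon at 6 days. In that library TREM2 was highest (2550 GeTMM), as were TYROBP (6610) and APOE (77700), while LIPA (273) and ABCA1 (1.42) were lowest. At 10 days the ISF library of Moon was lowest for TYROBP (1090 GeTMM) and APOE (3390), and the SF library of RimRun was highest for TYROBP (1810). For none of the 10 genes did the fluid difference at 10 days depart past the test from that at 48 hours or at 6 days. Changes of this difference between the earlier time points were not tested.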

How the results depend on the processing

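The number of the 10 genes called moved by over 1.5 times in these cases, and the cause was not tested unless the alternative's construction shows it. At 48 hours ISF against SF gave 1 when Moon's SF library of day 6 was dropped, in place of 0. Needing a log2 fold change of at least 1 as well gave 2 at 6 days, 1 at 10 days and 0 in ISF from 96 hours to 6 days. At 10 days no filter on low values and voom gave 1 each. When the ISF cultures of Dealings and Dreamer at 96 hours were dropped, ISF from 48 to 96 hours gave 2. With the replicate block of horses, the count was 2 in ISF from 96 hours to 6 days and 2 in SF from 6 to 10 days, and 2 in each with those libraries also left out, an alternative chosen after seeing the data. The block moved no other count by over 1.5 times, and it changed no call between the fluids beyond PLIN2 at 96 hours and LIPA at 10 days. With only the groups compared in the fit, SF gave 8 from 48 to 96 hours and 0 from 6 to 10 days, where leaving out the SF library of Moon also gave 0. Between the fluids at 6 days, that setting called 13.7% of all tested genes in place of 30.2%.

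Leaving out 1 horse at a time gave 0 to 3 calls at 10 days, 2 to 5 in ISF from 48 to 96 hours, 0 to 1 in both later ISF intervals, 4 to 8 in SF from 48 to 96 hours and 0 to 1 in SF from 6 to 10 days. Signs turned only for differences without a call. Over the horses left out these ranged from -0.02 to 0.21 for LGALS3, -0.52 to 0.07 for ABCG1 and -0.08 to 0.31 for ABCA1 at 48 hours, from -0.13 to 0.03 for APOE, -0.29 to 0.15 for ABCG1 and -0.20 to 0.05 for ABCA1 at 96 hours, from -0.17 to 0.25 for TYROBP at 6 days, and from -0.23 to 0.16 for APOE and -0.03 to 0.54 for ABCA1 at 10 days. TYROBP at 6 days was also 0.20 without the SF library of Moon. ABCG1, the lowest of the 10 genes in the cultures, had 0 reads in the lowest library and 1240 in the highest. The part of depth in its spread was not tested.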
